A study of Homo sapiens with 2 samples.

Results

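The genes described here encode the subunits of the nuclear RNA polymerases and the general transcription factors that place these enzymes on promoters. They were chosen by gene name alone: every gene on the array whose name in the deposited files began with POLR1, POLR2, POLR3, GTF2, GTF3 or TAF plus a digit, together with TBP and without TAF15. The rule found 74 of the 23611 named genes, on 144 of the 45033 transcript rows. Of these, 29 genes encode polymerase subunits and 45 encode initiation factors or their relatives.

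The RNA came from Panc1, a long-established line of human pancreatic duct cancer cells, after 24 h of pretreatment with either DMSO (the solvent) or clofibrate, a lipid-lowering agonist of the nuclear receptor PPARalpha. There was 1 array for each treatment, so no difference has a replicate check and no test was possible. The question the design poses is which transcripts differ between the treatments. The sources used here give no dose, and all cells came from a single cell line.

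RNA polymerase I transcribes the large ribosomal RNA precursor, polymerase II transcribes messenger RNA, and polymerase III transcribes transfer RNA, 5S ribosomal RNA and other small RNAs. Each is an assembly of subunits, some found in 1 enzyme only and some shared. Polymerase II is positioned by TFIID, which contains TBP and the TAF proteins, and by TFIIA, TFIIB, TFIIE, TFIIF and TFIIH. Polymerase I uses SL1, which pairs TBP with its own TAFs, and polymerase III uses TFIIIA, TFIIIB and TFIIIC. Output of polymerases I and III sets the capacity for making ribosomes and transfer RNA and is often raised in cancer cells.

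Both arrays had a median row intensity of 402, and a set of 5000 random probes, which gives a background level, read 48.7 with DMSO and 48.1 with clofibrate. Of 6 markers of duct and epithelial cells, 2 lay above the median level of all genes: the keratin genes KRT8 and KRT18, at percentiles 69.4 and 65.7 on the DMSO array. KRT7, TACSTD1 (now EPCAM) and CDH1 were at percentiles 45.3, 44.8 and 32.2. KRT19, a keratin of duct cells, read 5.65 there on the log2 scale, close to the random probes at 5.61, and was below the random probes with clofibrate. Of 17 markers of acinar, islet, liver, fibroblast, endothelial and blood cells, only COL1A1 lay above the median level of all genes. Because the RNA was of whole cultures, fewer cells of a type and less RNA per cell cannot be told apart.

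Values are log2 intensities, and differences are clofibrate minus DMSO on that scale. A gene's level is the mean over its transcript rows. Rows of a gene were read on the same arrays and are not replicates. Their agreement is therefore no check on a difference between the treatments. A gene is called bright where its mean over both arrays reached 8.51, the median over all genes. By this measure 62 of the 74 genes were bright. The 12 that were not were POLR1D, POLR3F, POLR3GL, TAF1A, TAF1B, TAF3, TAF5L, TAF7, TAF7L, TAF13, GTF2E1 and GTF2IRD2B. As a description of the scatter in this pair of arrays, the differences of genes of similar level had an SD that, at the levels of the bright members, ran from 0.20 to 0.33. It is called the like-level SD and is not a replicate error.

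The transcription machinery lay close to 0 as a whole. No bright member was at least 1.5-fold higher with clofibrate, against 1.3% of all 11806 bright genes, and 1 of 62, POLR3G, was at least 1.5-fold lower, against 1.33%. At a looser limit of 0.322 on the log2 scale, 5 members were higher (GTF2IRD2, GTF2E2, POLR2K, TAF1L and POLR3E) and 5 lower (POLR3G, TAF4B, TAF5, TAF2 and POLR1B), against 9.31% and 9.39% of all bright genes. POLR2C, at 0.321, lay just inside that limit. By single transcript rows, 3 of 125 bright member rows were at least 1.5-fold higher, of which 2 belong to GTF2IRD2 and 1 to POLR3E, and 1 was at least 1.5-fold lower, against 2.24% of all bright rows in each direction. The members' median difference was 0.03 and that of all bright genes 0.01. Further from 0 than this SD were 21 of the 62, against 29.7% of all bright genes, and further than 2 such SDs were POLR3G and GTF2IRD2, against 4.49%. These shares are close to the background. Of the 40 bright members with 2 or more rows, 21 had every row on the same side of 0, against 51.0% of all bright genes with 2 or more rows.

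**Figure D1:**
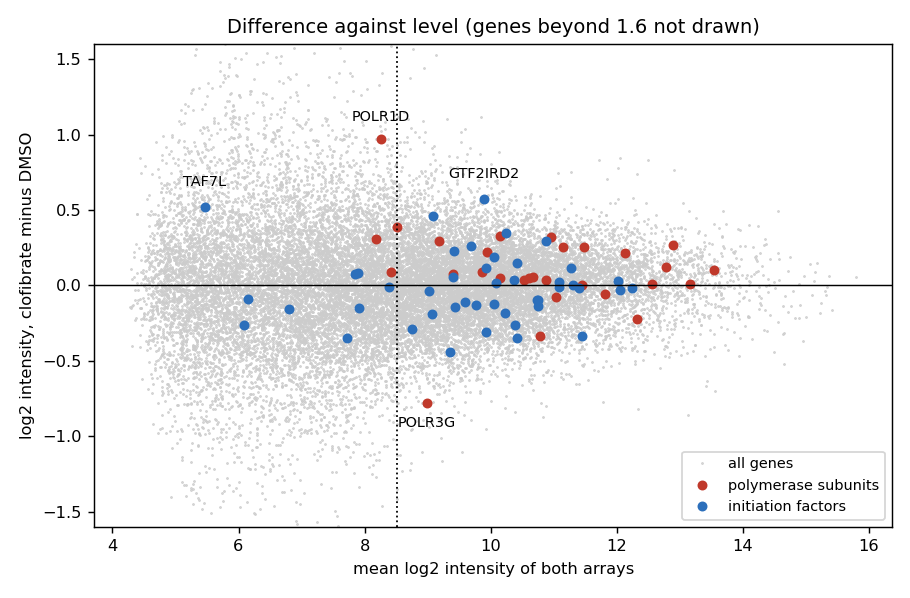
Difference (log2, clofibrate minus DMSO) against mean log2 intensity of both arrays, with 1 point for each gene. Grey points are all genes, red points polymerase subunits and blue points initiation factors and their relatives. The dotted line is the bright limit of 8.51, and POLR3G at -0.78 and GTF2IRD2 at 0.57 are the bright members furthest from 0.

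Within the list, the polymerase subunits lay mostly above 0 and the initiation factors and their relatives on both sides. Of 26 bright subunit genes, 21 were above 0 and 5 below, against 52.1% of all bright genes above 0, and their median was 0.07. When each gene was read from its brightest row, 15 of the 26 were above 0, and with the median over rows 17. Here and below, the median over rows was taken of the levels on each array apart. It is not the median of the row differences. With a trend of the difference on gene span removed, 19 were above 0. The 36 bright genes that encode no polymerase subunit had 16 above 0 and 20 below, with a median of -0.02. No subunit gene among those above 0 reached 1.5-fold, and the comparison rests on signs and small values.

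**Figure D2:**
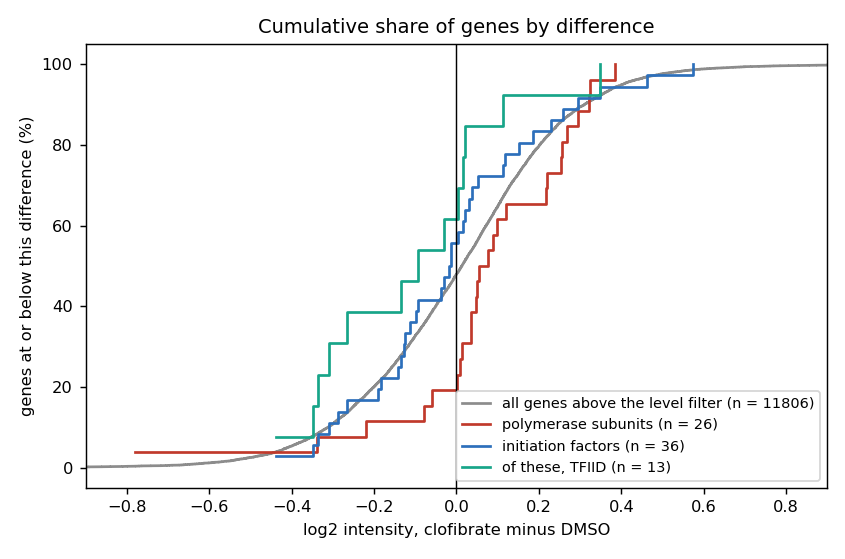
Cumulative share of bright genes (%) against the difference (log2, clofibrate minus DMSO). Curves are all bright genes, the 26 polymerase subunits, the 36 initiation factors and their relatives and, of these, the 13 TFIID genes. The subunit curve crosses 0 with 5 of 26 genes below it, and the TFIID curve with 8 of 13.

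Polymerase I was represented by 3 genes of its own. POLR1A, which encodes the largest subunit, read 10.12 with DMSO and 10.17 with clofibrate. POLR1B, the second-largest subunit, which forms the catalytic centre with POLR1A, read 10.95 and 10.61, a difference of -0.34 with a like-level SD of 0.22. All 4 rows of POLR1B were lower with clofibrate, at -0.56, -0.33, -0.29 and -0.17. Its RefSeq transcript NM_019014 lies on chromosome 2, from 113016083 to 113051879 (hg18). POLR1E, a subunit that acts in initiation, was at 0.05. The median of the 3 genes was 0.05, and it was -0.04 both with the brightest rows and with the median over rows.

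The subunits that polymerases I and III share differed the other way from POLR1B. POLR1C, which belongs to the assembly platform of both enzymes, read 11.01 and 11.27, a difference of 0.26, and its 3 rows lay close together at 0.21, 0.25 and 0.30. Its partner in that platform is POLR1D. The single row of POLR1D read 7.77 with DMSO and 8.74 after clofibrate, 0.97 apart or 1.96-fold, the largest difference of any member gene. That row was dim, with a like-level SD of 0.35, and spans 27094028 to 27095586 on chromosome 13 (hg18).

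Because POLR1B and POLR1C had every row on opposite sides of 0, the promoters of both are shown, from RefSeq on GRCh38.p14. Each runs 5′ to 3′ from 250 bases before to 50 bases after the annotated start, and capitals would mark TATAAA, the core of the TATA box that TBP binds, or CACGTG, an E-box, on either strand. Neither promoter holds these letters. POLR1B lies at chr2:112541786-112542085 on the plus strand and POLR1C at chr6:43516839-43517138 on the plus strand.
POLR1B: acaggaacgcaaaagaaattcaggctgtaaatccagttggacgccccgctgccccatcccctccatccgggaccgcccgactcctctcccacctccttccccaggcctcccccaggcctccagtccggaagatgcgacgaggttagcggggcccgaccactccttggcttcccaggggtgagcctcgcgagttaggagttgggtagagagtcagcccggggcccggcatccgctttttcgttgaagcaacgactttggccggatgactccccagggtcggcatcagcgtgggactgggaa
POLR1C: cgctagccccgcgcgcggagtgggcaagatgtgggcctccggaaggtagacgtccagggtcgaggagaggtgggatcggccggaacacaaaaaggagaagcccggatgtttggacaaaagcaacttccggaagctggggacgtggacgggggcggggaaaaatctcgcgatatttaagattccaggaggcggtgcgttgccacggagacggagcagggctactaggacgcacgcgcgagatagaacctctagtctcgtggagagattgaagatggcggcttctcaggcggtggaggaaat

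All 5 subunit genes shared by polymerases I, II and III were above 0, against 52.1% of all bright genes, with a median of 0.22. POLR2L, a small zinc-binding subunit, read 12.75 with DMSO and 13.02 after clofibrate, 0.27 higher against a like-level SD of 0.20, and its rows were at 0.21, 0.25 and 0.35. POLR2H was at 0.22 from its only row, POLR2E at 0.12 and POLR2F at 0.01. POLR2F turned below 0, to -0.02 at the lowest, with quantile normalization and with a trend on level or span removed. POLR2K, another small zinc-binding subunit, was at 0.39, but that mean rests on a dim row that read 6.42 and 7.50, while its other rows were at 0.12 and -0.04. With the median over rows POLR2K was at -0.04, the difference of its row of middle level, and the group median was 0.12. The middle of the row differences of POLR2K was also 0.12. These genes are short, with a median span of 5.17 kb where all bright genes had 15.5 kb. With the trend on span removed, the group median was 0.17.

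Of the 9 genes for subunits of polymerase II alone, 7 were above 0, against 52.1% of all bright genes, and the median was 0.10. POLR2A, which encodes the largest subunit and carries the heptad repeats of the carboxy-terminal domain, read 12.01 with DMSO and 12.23 with clofibrate. Its rows disagreed in size: the full-length NM_000937 was at 0.00, with 12.84 on both arrays, and BC067295 was at 0.43. POLR2B, the second-largest subunit, was lower, at 12.43 and 12.21 from its only row. The catalytic pair thus gave no common direction.

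The smaller polymerase II subunits agreed better between rows. POLR2C, which forms the assembly platform with POLR2J, read 10.79 and 11.12, a difference of 0.32 with rows at 0.21, 0.25 and 0.51. POLR2G, which forms the stalk with POLR2D, was at 0.25, with rows at 0.24 and 0.27. Its stalk partner POLR2D was at 0.05. POLR2I, a zinc-binding subunit known from yeast for start site choice and proofreading, was at 0.29 from 1 row, with a like-level SD of 0.28. The platform partner POLR2J was below 0, at -0.08 with rows at -0.11 and -0.05. Its near-copies POLR2J2 and POLR2J3 were at 0.01 and 0.10, and these 3 genes on chromosome 7 share sequence, so the array may not separate them.

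Polymerase III gave the largest bright difference of the list. POLR3G, a subunit of the enzyme's initiation subcomplex that is known from embryonic stem cells and tumour cells, read 9.37 with DMSO and 8.59 after clofibrate, which is -0.78 or 1.72-fold lower. Its like-level SD was 0.29. It rests on 1 row, NM_006467, on chromosome 5 from 89806481 to 89843881 (hg18). POLR3GL encodes the paralog that takes the same place in the enzyme and was at 0.09, with dim readings of 8.37 and 8.46. Across the processing alternatives POLR3G stayed between -0.78 and -0.76, but several of these could not move it, or hardly. With 1 row, its value is the same under every treatment of rows. The series matrix held equal values, and median centring shifted all genes by very little. Quantile normalization and removal of a trend on level or span gave -0.78, -0.78 and -0.76. The narrow range is therefore no check on the reading of that row. The stricter filter on level left POLR3G out.

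The other polymerase III genes lay nearer 0. POLR3A, the largest subunit, read 11.45 on both arrays, with rows at -0.24, -0.09 and 0.34. With the median over rows it was at -0.24, the difference of its row of middle level. The middle of its row differences was -0.09. POLR3B, the second-largest subunit, read 10.86 and 10.89. POLR3C and POLR3F form the initiation subcomplex with POLR3G or POLR3GL. POLR3C was at -0.06, and dim POLR3F was at 0.31 with rows at 0.16 and 0.45. POLR3E, which pairs with POLR3D, was at 0.32, but its rows were at 0.77, 0.25 and -0.04, and the brightest of them was the one below 0. POLR3D was at 0.08 and POLR3K at 0.03. The 8 bright genes had a median of 0.03, which was -0.04 with the brightest rows.

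**Figure D3:**
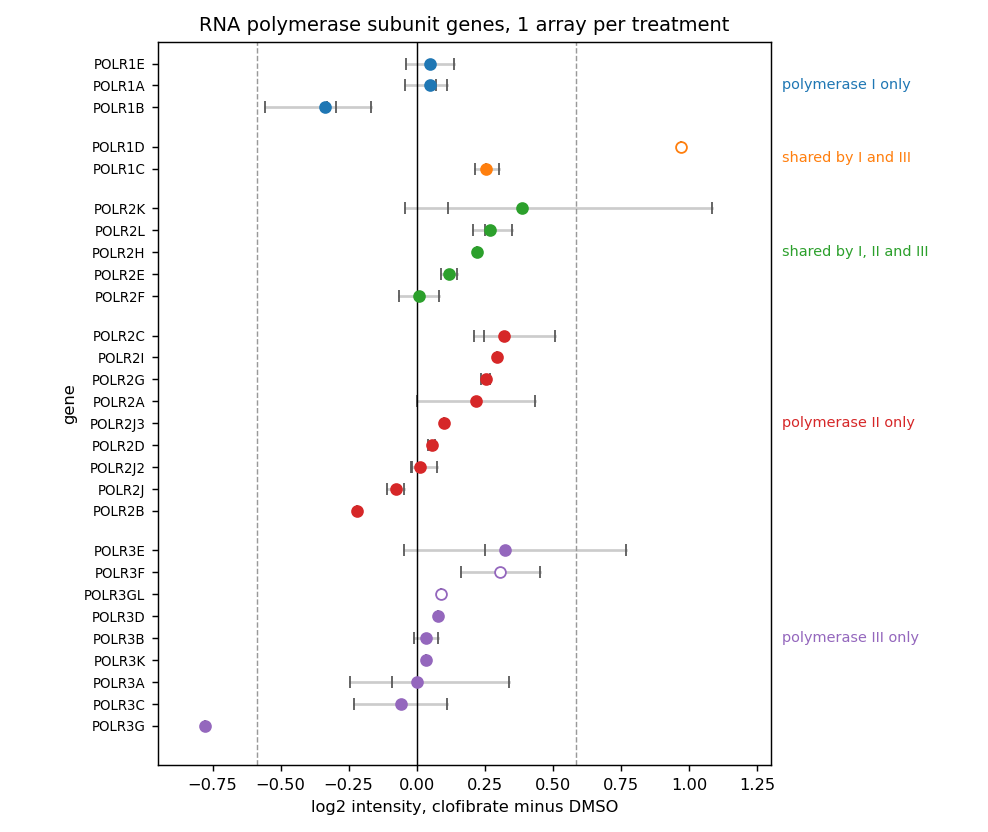
Difference (log2 intensity, clofibrate minus DMSO) of the polymerase subunit genes, ordered within each enzyme, with 1 gene not drawn. Large points are gene means, filled where the gene is bright and open where it is not, dark ticks are single transcript rows, grey lines span their range, and dashed lines mark 1.5-fold; POLR3G lies below the lower line at -0.78 and dim POLR1D above the upper line at 0.97.

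TFIID, the complex that recognises polymerase II promoters, had 8 of its 13 bright genes below 0 and a median of -0.09, against 47.9% of all bright genes below 0. TBP, the subunit that binds the TATA box, read 11.07 with DMSO and 11.09 with clofibrate, with rows at -0.03, -0.02 and 0.11. TAF1, the largest subunit and the TBP-binding scaffold, read 10.08 and 10.10, with rows from -0.13 to 0.29 and the brightest at 0.29. TAF4, a core subunit, read 11.31 and 11.32. By their means over rows, these central genes lay near 0.

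The lower values came from other TAFs. TAF4B, a tissue-restricted relative of TAF4, read 9.57 and 9.13, a difference of -0.44 from 1 row with a like-level SD of 0.28. TAF5, which carries WD40 repeats, was at -0.35 (10.59 and 10.24) from 1 row. TAF2, which contacts the initiator element at the start site, was at -0.34, with rows at -0.41 and -0.26. These 3 genes were the only bright TFIID members lower by more than 0.322.

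TAF9 and TAF9B encode close histone-fold paralogs, and every row of both was below 0. TAF9 was at -0.26, with rows from -0.58 to -0.11. TAF9B, on the X chromosome, read 10.08 with DMSO and 9.78 after clofibrate, at -0.31, with rows at -0.40, -0.27 and -0.26. TAF6, which pairs with TAF9, was at 0.11 and TAF11 at -0.09, each from 1 row. TAF12 was at -0.13 with rows at 0.04 and -0.31, and TAF10 at -0.03. TAF1L, a retrotransposed copy of TAF1, was the only bright TFIID-type gene above 0.322, at 0.35 from 1 row. It lies on chromosome 9 and can share probe sequence with TAF1.

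Of the TFIID genes that were not bright, TAF13 was at -0.09, TAF3 at -0.27 and TAF7 at 0.08. TAF7L, a germ cell relative of TAF7, had 2 dim rows. The first, AK026810, read 4.86 with DMSO, below the random probes, and 6.11 with clofibrate, so it was at least 1.42-fold higher. The other row lay below the random probes on both arrays. TAF5L and TAF6L, paralogs of TAF5 and TAF6 in SAGA-type coactivator complexes, lay on opposite sides of 0: dim TAF5L was at -0.35 (rows -0.37 and -0.32) and bright TAF6L at 0.26 (rows 0.19 and 0.33). In SL1, the polymerase I selectivity factor, TAF1C was at 0.12, and dim TAF1A and TAF1B were at 0.07 and -0.15.

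The remaining factors of the polymerase II preinitiation complex had 3 of 11 bright genes above 0 and 8 below, with a median of -0.10. Of all bright genes, 52.1% were above 0 and 47.9% below. TFIIA, which steadies TBP on DNA, had both genes below 0: GTF2A1 read 8.90 and 8.61, a difference of -0.29 with rows at -0.35 and -0.22, and GTF2A2 was at -0.11. GTF2B, which encodes TFIIB and joins the polymerase to TBP, read 10.32 with DMSO and 10.14 after clofibrate, at -0.18, within the like-level SD of 0.24. In TFIIF, which escorts the polymerase to the promoter, GTF2F1 was at -0.02, with rows at -0.20, 0.04 and 0.12. GTF2F2 was at -0.19 with rows at -0.22 and -0.16. The subunits of TFIIE, which recruits TFIIH, differed from each other: GTF2E2 read 8.86 and 9.32, a difference of 0.46 from 1 row, and dim GTF2E1 was at -0.01 with rows at 0.22 and -0.24.

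TFIIH opens the DNA and phosphorylates the polymerase II tail, and it also serves nucleotide excision repair. Its core genes GTF2H1, GTF2H2, GTF2H3 and GTF2H5 lay between -0.14 and 0.03, and GTF2H4 was at 0.23 from 1 row. GTF2H2 has near-identical copies on chromosome 5, so its value is uncertain. The TFIIH subunits that the naming rule does not cover were also near 0. The helicase genes ERCC2 and ERCC3 were at 0.13 and 0.02, and CDK7, CCNH and MNAT1, which form the kinase module, were at -0.14, -0.13 and -0.06. None of these TFIIH genes was further than 0.23 from 0.

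Promoters were searched on both strands of the same 300-base window for TATAAA and for the E-box CACGTG. The search also covered AGGTCA, a half-site of nuclear receptors, and in the member promoters no match overlapped one of another motif. Of the 74 genes, 58 had a promoter in the RefSeq table. TATAAA was found in 3 of the 47 promoters of bright members, those of GTF2B, GTF3C3 and TAF4B, and in 6.19% of the 7935 promoters of all bright genes. CACGTG was found in 11 of the 47 (23.4%) and in 10.5% of the promoters of all bright genes, and AGGTCA in 3 of the 47 and in 10.1%. The 12 members of any level with CACGTG ranged from -0.44 to 0.32, with 4 above 0 and 8 below. Of all measured genes, 50.4% were above 0. A match is a description of letters and not a site.

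GTF2B and TAF4B are shown because theirs are the only member promoters with both TATAAA and CACGTG, here in capitals. In GTF2B, chr1:88891518-88891817 on the minus strand, TATAAA begins 29 bases before the annotated start and CACGTG 113 bases before it. In TAF4B, chr18:26226195-26226494 on the plus strand, CACGTG begins 183 bases before the start and TATAAA 7 bases after it.
GTF2B: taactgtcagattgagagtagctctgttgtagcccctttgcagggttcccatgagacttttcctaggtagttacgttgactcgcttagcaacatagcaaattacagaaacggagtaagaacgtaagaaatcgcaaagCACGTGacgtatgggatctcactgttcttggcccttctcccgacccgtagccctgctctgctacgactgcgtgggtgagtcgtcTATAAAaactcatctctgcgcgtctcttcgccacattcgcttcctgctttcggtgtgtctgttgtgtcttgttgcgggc
TAF4B: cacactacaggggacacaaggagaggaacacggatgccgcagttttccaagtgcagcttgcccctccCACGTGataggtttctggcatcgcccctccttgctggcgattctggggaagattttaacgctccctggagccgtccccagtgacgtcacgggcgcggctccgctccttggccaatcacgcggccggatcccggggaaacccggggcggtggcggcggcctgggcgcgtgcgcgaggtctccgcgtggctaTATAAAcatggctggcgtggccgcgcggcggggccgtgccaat

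The TFII-I family shares the GTF2 name but consists of signal-regulated DNA-binding proteins rather than parts of the preinitiation complex. Its genes lie on chromosome 7, in and around the region deleted in Williams-Beuren syndrome. GTF2IRD2, a family member derived in part from a transposon, read 9.61 with DMSO and 10.19 after clofibrate, which is 0.57 or 1.49-fold higher, just short of the 1.5-fold limit. Its like-level SD was 0.25. All 3 of its rows were above 0, at 0.79 (BC067859), 0.72 (BC047706) and 0.21 (AY336979), and BC067859 spans 73851302 to 73905772 (hg18).

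GTF2IRD2 was thus the bright member furthest above 0, and its value depended on how rows were combined. It was 0.79 with the brightest row and 0.21 with the median over rows. The latter is the difference of AY336979, the row of middle level, while the middle of the row differences was 0.72. Its copy GTF2IRD2B was dim and at -0.16 (6.88 and 6.73). GTF2I, which gives the family its name, was at -0.01 with rows at -0.13 and 0.11, GTF2IRD1 was at 0.19, and the pseudogene GTF2IP1 was at 0.05 over 8 rows. That sign is not settled: on each array the row of GTF2IP1 at 0.84 lay below the random probes. The gene was at -0.07 with the median over rows and at -0.21 with the brightest row. GTF2IRD2 and GTF2IRD2B are nearly identical in sequence, as are GTF2I and the pseudogene GTF2IP1. Cross-hybridisation between these copies was not tested, and their single values are uncertain.

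The polymerase III factors showed no common direction. GTF3A, which encodes TFIIIA, the 5S gene factor, was at 0.04. Of the TFIIIC subunits, GTF3C1, the largest, was at 0.15 and GTF3C2 at 0.29 with rows at 0.14 and 0.45. GTF3C3, GTF3C4 and GTF3C5 were at -0.13, -0.13 and -0.01. The median of these 6 genes was 0.01, and its sign turned with the trend on span removed and with current gene symbols.

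**Figure D4:**
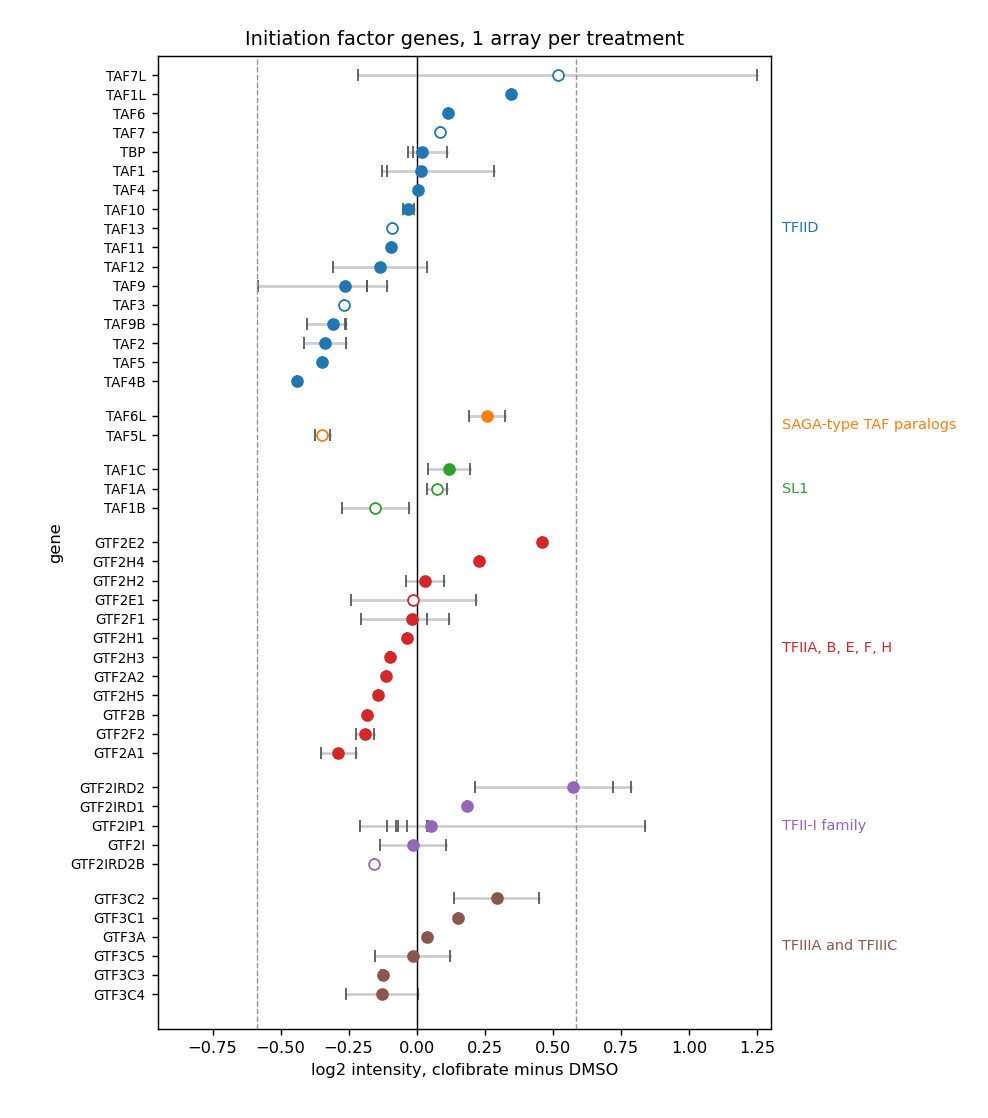
Difference (log2 intensity, clofibrate minus DMSO) of each gene of the initiation factors and their relatives, by complex or family. Gene means are large points (filled where bright, open where not), single rows are dark ticks joined by a grey line and dashed lines mark 1.5-fold. TAF4B at -0.44 is the lowest bright gene and GTF2IRD2 of the TFII-I family, at 0.57, the highest.

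Other genes of the transcription apparatus were read from lists of 82 genes in all, of which 71 were bright. None of the bright ones was at least 1.5-fold higher and 2 were at least 1.5-fold lower, against 1.3% and 1.33% of all bright genes. The first was SSB, which encodes La, the protein that binds the ends of new polymerase III transcripts, at -0.59 (11.49 and 10.91, 1 row). The second was TFAM, which packages and activates mitochondrial DNA, at -0.80 (9.14 and 8.34, 1 row). The 71 bright genes had a median of -0.04, with 33 above 0 and 38 below. Of all bright genes, 52.1% were above 0 and 47.9% below.

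TFIIIB, which carries polymerase III to its start sites, had BRF1 at 0.17, BDP1 at 0.13 and BRF2, its form for promoters outside the gene body, at -0.04. Rows ran from -0.39 to 0.74 in BRF1, -0.15 to 0.44 in BDP1 and -0.30 to 0.23 in BRF2. MAF1, the repressor of polymerase III, was at 0.21. The polymerase I factors UBTF, RRN3 and TTF1 were at -0.01, -0.05 and -0.08. POLRMT, the mitochondrial polymerase, was at 0.05.

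The list of 30 elongation and pausing genes, all bright, had 12 above 0 and 18 below, with a median of -0.07. Of all bright genes, 52.1% were above 0 and 47.9% below. The list included RPAP1, C1orf82 (now RPAP2) and XAB1 (now GPN1), which are not elongation or pausing factors, at -0.12, -0.12 and -0.08. COBRA1, now NELFB and part of the negative elongation factor, had the highest value at 0.54, with rows at 0.48 and 0.59. ELL2, an elongation factor, had the lowest at -0.57 from 1 row. HEXIM1, an inhibitor of the kinase P-TEFb, was at 0.38 with rows at 0.21 and 0.55, and CDK9, the kinase itself, at 0.29. The cyclin genes CCNT1 and CCNT2 lay the other way, at -0.28 and -0.13. HDCMA18P, now LARP7, was at -0.42 with rows from -0.55 to -0.27. Of 22 bright Mediator genes, of 30 measured, 14 were above 0 and 8 below, with values from -0.35 to 0.46. None was 1.5-fold different, against 1.3% of all bright genes higher and 1.33% lower.

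**Figure D5:**
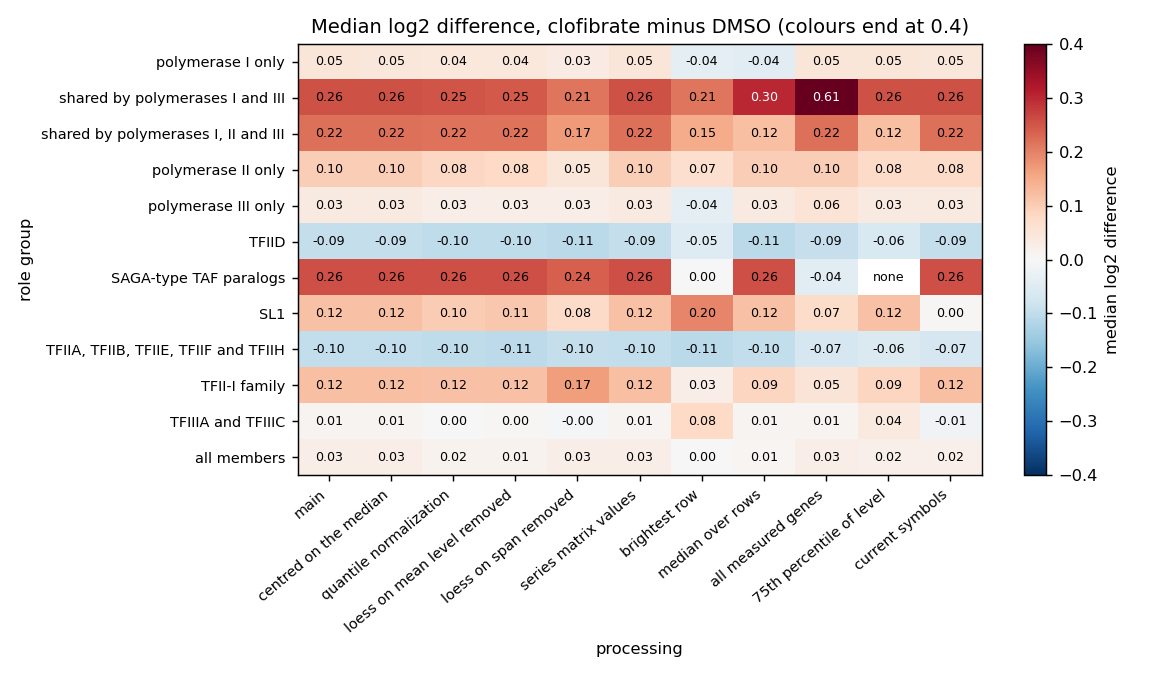
Median difference (log2, clofibrate minus DMSO) over the bright genes of each role group, in rows, under the processing as reported (main) and each alternative, in columns. The medians of TFIID and of TFIIA, TFIIB, TFIIE, TFIIF and TFIIH are below 0 in every column, and those of polymerase I only and polymerase III only turn sign with the brightest row.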

How the data were processed

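RNA of 2 Panc1 cultures was measured on 1-colour arrays, 1 for DMSO and 1 for clofibrate. Each file holds linear intensities that the authors made from the probes of a row with RMA, as the submitters' processing notes say. Its version is not given in the sources used here, nor are its settings. Both arrays had nearly the same distribution, so a shift shared by most genes, such as a general loss of messenger RNA, would be hidden. Positions are on hg18, per the file headers, and 45031 of the 45033 rows summarise 3 probes. The series matrix held equal values. A second deposited column, not defined in its header, was left aside.

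All values were taken to log2. Rows without a gene name (2086) were left out of genes. Genes took the names in the files, and 38916 rows matched RefSeq (GRCh38.p14) by gene ID. The related genes were matched by either name. The like-level SD used 40 equal bins of all genes. No p-value or standard error could be had from 1 array per group, which limits the precision. Where a row was below the random probes on 1 array, its fold was given as a bound, but means over rows kept such values as deposited.

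Genes were described where at least 1.5-fold different, and for the largest subunits, TBP, GTF2B and the extremes of each role group. The others were given by value or range, and 1 member is counted but not reported here by itself. The members and lists were chosen with earlier results of these data known. Alternatives were median centring, quantile normalization and loess on mean level or gene span (limma, fraction 0.3), the series matrix, the brightest row or the median over rows, other level filters, other folds and current symbols. Medians over rows were taken of the levels on each array apart. The counting code was run on simulated data with less scatter than these arrays and with planted differences away from the 1.5-fold limit. That run checks the code and not calls near the limit in these data. Software was Python 3.11.15, numpy 2.4.6, pandas 2.3.3, matplotlib 3.10.9, R 4.3.3 and limma 3.58.1.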

Additional observations from a re-analysis of the deposited data

How the results depend on the processing

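No paired analysis was possible because the design has a single array on each side, and leaving out an array would end the comparison. Under the alternatives, 113 recomputed group medians moved by less than 0.1 and 6 did not. The SAGA-type pair went from 0.26 (TAF6L alone) to -0.0435 with all measured genes and 0.0028 with the brightest rows, where TAF5L enters; none of its genes was left at the 75th percentile of level. The median of subunits shared by all 3 polymerases was 0.12 with the median over rows and at the 75th percentile of level, that of the pair shared by polymerases I and III was 0.61 with all measured genes, where POLR1D enters, and SL1 was at 0.0038 with current symbols. The count of members at least 1.5-fold higher was 1 with the trend on span removed and with the brightest row (GTF2IRD2), and 1 with all measured genes (POLR1D). The count at least 1.5-fold lower was 0 at the 75th percentile of level, where POLR3G leaves, and at 2-fold. Both counts were 5 at a limit of 0.322 on the log2 scale. By counts added after seeing the data, and over the alternatives run, 15 to 24 polymerase subunits lay above 0, of 20 to 29 bright ones, and 6 to 10 TFIID genes below 0. Over the same alternatives, 50.1% to 54.6% of all genes that passed the level filter were above 0. Single genes moved by more than the like-level SD in 8 recomputed values, all with another treatment of rows, and by less in 584. The tallies of group medians and single genes include values that could not move, or hardly. The series matrix held equal values, and median centring shifted every gene alike by very little. The 28 members with 1 row do not change with the treatment of rows. Signal over background limits the 12 dim members most.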

Other observations

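Several genes of the same complexes were on the array under older names that the rule does not cover. ZNRD1, now POLR1H, a subunit of polymerase I known from yeast for transcript cleavage, read 7.32 with DMSO and 7.88 after clofibrate, 0.56 higher with all 3 rows above 0, the highest at 1.09 and the lowest at 0.01, and the gene was dim. CD3EAP, now POLR1G, was at 0.05 and TWISTNB, now POLR1F, at -0.23. C6orf51, now the TFIIIC subunit gene GTF3C6, was at -0.29 with rows at -0.35 and -0.23, with a like-level SD of 0.21. JOSD3, now the SL1 gene TAF1D, was at -0.11, and TBN, now TAF8, was dim and at 0.23.

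Among the related lists, all 4 genes of the negative elongation factor were above 0, against 52.1% of all bright genes. WHSC2 (now NELFA) was at 0.10 from 1 row, COBRA1 (NELFB) at 0.54, TH1L (NELFCD) at 0.13 and RDBP (NELFE) at 0.23. COBRA1, TH1L and RDBP had 2 rows each, all above 0. Of all bright genes with 2 rows, 61.1% had both on the same side of 0. The 5 PAF1 complex genes on the list were below 0, against 47.9% of all bright genes. PAF1 was at -0.20, SH2BP1 (now CTR9) at -0.28 from 1 row and LEO1 at -0.32 from 1 row. CDC73 was at -0.09, with 1 of its 2 rows above 0 at 0.06, and RTF1 at -0.16. Both groupings were picked after the values were seen, each gene is 1 reading per array, and no test was run.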
